A study of Homo sapiens with 18 samples.

Results

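The genes described here are 10 genes of telomerase and telomere maintenance: TERT, DKC1, ATRX, DAXX, TERF1, TERF2, TERF2IP, TINF2, ACD and POT1. They were chosen by name, with earlier results of these data known, and all 10 were found among the 63677 gene identifiers of the tables, each with 1 identifier. The data are bulk RNA sequencing of 18 xenograft tumours, which are tumours grown in mice from human neuroblastoma cells, a childhood cancer of the sympathetic nervous system. Tumours of KELLY, LAN-1 and SKNAS (usually written SK-N-AS) were sampled under 2 conditions, control and Hmx1, the second named after a homeobox transcription factor, and each of the 6 groups has 3 libraries. Whether Hmx1 was raised or lowered, what the controls carried, and the strain and age of the mice are not stated in the labels, which give no other treatment. MYCN amplification is given as the genotype of 2 KELLY control samples only. Nothing in the labels ties the libraries of a group to separate mice, so p-values measure only the spread between libraries, which may be technical.

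Telomeres are the repeat-covered ends of chromosomes, which shorten as cells divide. Telomerase rebuilds them with the reverse transcriptase TERT on an RNA template that dyskerin, the product of DKC1, and its partners stabilise. Shelterin, the complex that caps telomeres, is built from the double-strand binders TERF1 and TERF2, the TERF2 partner TERF2IP (RAP1), the bridge TINF2 (TIN2), its partner ACD (TPP1) and the single-strand binder POT1. ATRX and DAXX place the histone variant H3.3 at telomeres and other repeats, and tumours that lack either can lengthen telomeres by recombination instead of telomerase. In neuroblastoma, TERT rearrangement, MYCN amplification and ATRX loss are known routes to telomere maintenance.

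The 250 bases before the start site are shown for the reverse transcriptase, for dyskerin, and for TINF2, the shelterin gene with the largest difference between lines on TPM. They were taken from RefSeq (GRCh38.p14), which matched 6 of the 10 genes, and run 5′ to 3′ along the gene's strand. Capitals mark the E-box CACGTG, which MYC and MYCN proteins bind, the ETS core CCGGAA and the GC box GGGCGG, each searched on both strands.
TERT, chr5:1295069-1295318, minus strand: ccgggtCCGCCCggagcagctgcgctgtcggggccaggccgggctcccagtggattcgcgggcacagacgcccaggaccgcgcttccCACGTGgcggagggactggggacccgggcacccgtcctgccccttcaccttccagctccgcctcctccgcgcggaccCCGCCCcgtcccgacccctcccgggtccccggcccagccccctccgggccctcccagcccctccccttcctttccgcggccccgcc
DKC1, chrX:154762614-154762863, plus strand: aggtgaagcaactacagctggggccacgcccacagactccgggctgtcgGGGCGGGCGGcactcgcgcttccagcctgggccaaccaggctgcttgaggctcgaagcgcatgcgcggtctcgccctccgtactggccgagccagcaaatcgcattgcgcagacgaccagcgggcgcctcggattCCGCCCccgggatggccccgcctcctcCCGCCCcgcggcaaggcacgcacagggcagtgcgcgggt
TINF2, chr14:24242675-24242924, minus strand: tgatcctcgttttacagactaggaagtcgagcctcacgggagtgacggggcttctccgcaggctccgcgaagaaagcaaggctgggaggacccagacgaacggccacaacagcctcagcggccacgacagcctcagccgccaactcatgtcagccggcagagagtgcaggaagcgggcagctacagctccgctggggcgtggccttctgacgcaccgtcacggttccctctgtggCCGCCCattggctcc

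The TERT window held 1 E-box and 2 GC boxes and was 78.8% G or C. The DKC1 window held 4 GC boxes, of which 2 overlap each other, and the TINF2 window shown held 1. RefSeq lists 2 start sites for TINF2, and the window is that of the first listed. Of 35116 windows of this length, 6.34% held the E-box, 14.5% the ETS core and 42.6% the GC box, so only the E-box of TERT is an uncommon match. Matches describe letters and do not show binding.

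The human HMX1 gene itself was listed at 0 in the 3 SKNAS controls and between 0.193 and 1.24 TPM in the SKNAS Hmx1 libraries, and its arms overlapped in LAN-1 (11.1 to 11.9 and 11.5 to 16.5 TPM) and in KELLY (3.92 to 7.72 and 4.68 to 6.398 TPM). Values are TPM, in which each gene's length-corrected signal is a share of its library. The number of reads behind a value is unknown, so counting error is not given. Genes were compared on log2(TPM + 1) over 18650 genes with limma, and a gene was called at a Benjamini-Hochberg adjusted p under 0.05. Changes below are log2 differences ± their standard error, with 3 libraries per group. TPM is a share, and the median gene differed between lines: in control libraries it was 0.18 higher in SKNAS than in LAN-1, 0.54 higher in SKNAS than in KELLY and 0.34 higher in LAN-1 than in KELLY. The called line differences are therefore also given on TPM divided by a median-ratio factor per library, which brings those medians to 0.04, 0.01 and -0.01. On TPM, 9234 genes were called higher and 3011 lower in SKNAS than in KELLY controls, against 5770 (31.2%) and 5671 (30.7%) after scaling. Mitochondrial transcripts took 4.47% to 7.07% of TPM in LAN-1 libraries, 14.0% to 21.2% in SKNAS and 12.9% to 33.8% in KELLY, most in a KELLY control. This share therefore differs between LAN-1 and the other lines. KELLY control replicate 1 was the lowest of its group for 9 of the 10 genes and 69.4% of all tested genes, and KELLY Hmx1 replicate 3 for 9 of 10 and 60.3%. In bulk tumours, fewer cells of a type and less RNA per cell cannot be told apart.

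In every line DKC1 had the highest mean level of the 10 genes and TERT the lowest, as TPM, which is a value per transcript length. DKC1 averaged 191 TPM in SKNAS, 244 in LAN-1 and 142 in KELLY, and TERT 3.93, 3.72 and 4.78 TPM. TERT was expressed above 33.4% of tested genes by its mean over the 18 libraries, and DKC1 above 96.7%. The second place differed: it was DAXX in SKNAS, at 134 TPM, and TERF2IP in LAN-1, at 136 TPM, and in KELLY, at 89.7 TPM. In SKNAS, DKC1, DAXX, TERF2IP and the next gene, ATRX, did not overlap over the 6 libraries of that line. TERF2IP overlapped DAXX in LAN-1 and in KELLY, and TERF1 and TERF2 overlapped ATRX in every line. TERT overlapped the next gene up, TINF2, in KELLY only. All 10 genes passed the filter on low values.

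**Figure D1:**
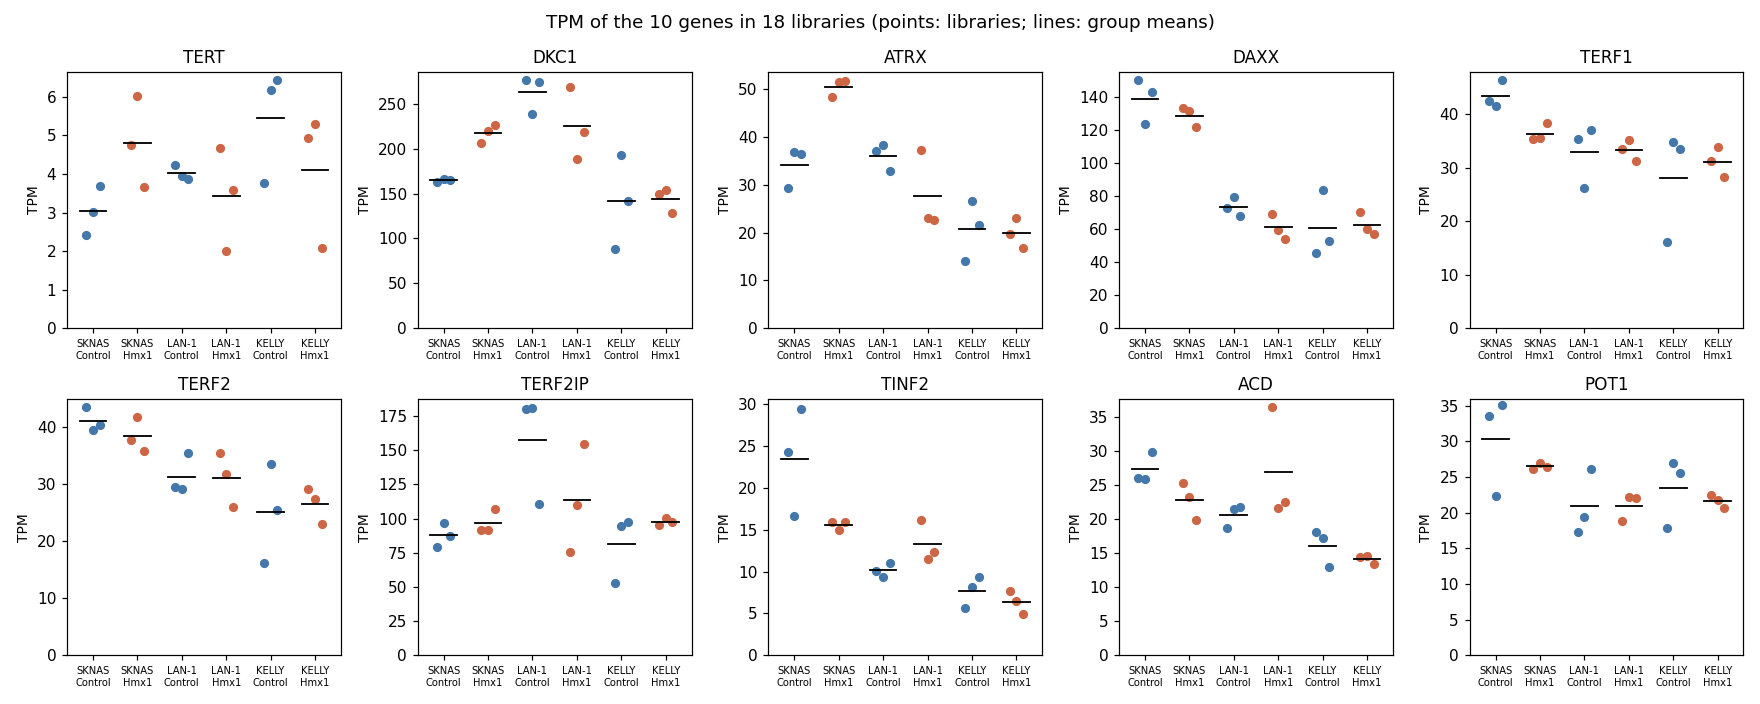
TPM (vertical axes, from 0) of each of the 10 genes in the 18 libraries, by line and arm, with points for libraries and a line for the group mean. DAXX stands apart in SKNAS, where its 6 libraries lie between 121.8 and 150 TPM, and the lowest KELLY control is replicate 1 for 9 of the genes.

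None of the 10 genes was called between Hmx1 and control in any line. In SKNAS tumours ATRX and DKC1 were higher in all 3 Hmx1 libraries than in all 3 controls, and TERF1, TINF2 and ACD lower, without passing the adjusted threshold on TPM. The limma fit called 8.76% of tested genes in SKNAS, 0.45% in LAN-1 and 0.0912% in KELLY, so a count of 0 of 10 is near the background in each. At an unadjusted p under 0.05 there were 2 genes in SKNAS, ATRX and TINF2, and 0 in LAN-1 and in KELLY. The share of all tested genes past that unadjusted threshold was not computed, here or for the lists below. Counts at it therefore have no background, and the percentages given are for adjusted p. The mean of the 3 effects called 0 of 10 against 3.54% of all genes, with 0 at an unadjusted p under 0.05. The differences between effects called 0 of 10 each, against 4.99% for SKNAS minus LAN-1, 4.85% for SKNAS minus KELLY and 0.209% for LAN-1 minus KELLY, with 4, 1 and 1 genes at an unadjusted p under 0.05. After median-ratio scaling, limma called 2 genes in SKNAS, ATRX and DKC1, both higher (10.7% of all genes, 5.83% higher), 3 for SKNAS minus LAN-1, ATRX and DKC1 higher and TINF2 lower (6.74%), and 1 for SKNAS minus KELLY, ATRX, higher (7.22%, 3.68% higher). The arms did not overlap on TPM for 5 of 10 genes in SKNAS, 1 in LAN-1 and 0 in KELLY, where 30.9%, 15.8% and 6.67% of all tested genes did not overlap. After scaling the counts were 6, 3 and 1, beside 31.5%, 17.3% and 10.4% of all tested genes. The genes added by scaling were TERT in SKNAS and in KELLY, and DAXX and ACD in LAN-1.

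**Figure D2:**
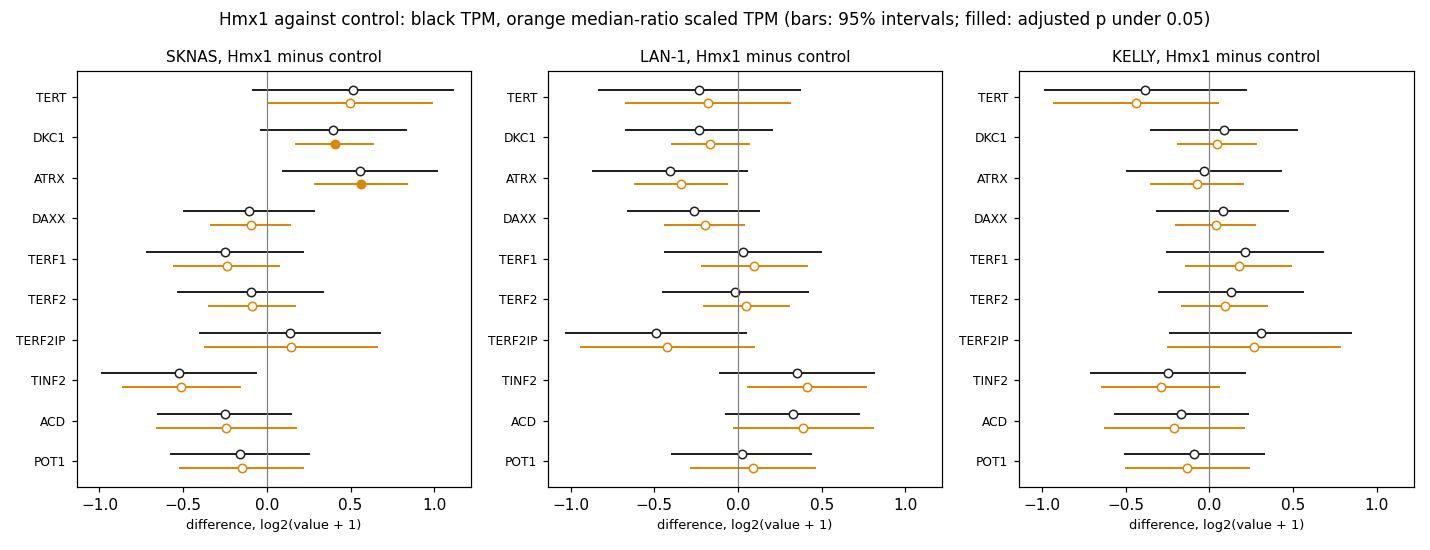
Hmx1 minus control for each gene and line, as a log2 difference (horizontal axis) with 95% intervals, on TPM (black) and on median-ratio scaled TPM (orange), with filled points for an adjusted p under 0.05. The filled points are ATRX and DKC1 in SKNAS after scaling, at 0.56 and 0.41.

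Between lines, DAXX was called higher in SKNAS than in LAN-1 and KELLY in both arms and on both scales. TINF2 was called higher in SKNAS than in KELLY in both arms and than in LAN-1 in controls, again on both scales. In control libraries limma called 5 of the 10 genes between SKNAS and LAN-1 (52.0% of all tested genes). Of these, 3 were higher in SKNAS, where 31.5% of all genes were, and 2 lower, where 20.5% were. Between SKNAS and KELLY controls 7 were called (65.7%), 6 higher in SKNAS (49.5%) and 1 lower (16.1%). Between LAN-1 and KELLY controls 3 were called (51.8%), all higher in LAN-1 (38.2%). In Hmx1 libraries 2 were called between SKNAS and LAN-1 (53.1%), both higher in SKNAS (34.2%), 6 between SKNAS and KELLY (64.8%), all higher in SKNAS (48.7%), and 3 between LAN-1 and KELLY (49.9%), all higher in LAN-1 (33.9%). The share of the 10 genes called was below that of all genes in 5 of the 6 comparisons, and no count stands far above its background.

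After scaling, the comparisons in control libraries called 4 genes each, where all genes gave 55.2% for SKNAS against LAN-1, 61.9% for SKNAS against KELLY and 50.1% for LAN-1 against KELLY. In Hmx1 libraries they called 2 (56.2%), both higher in SKNAS (29.8%), 5 (63.7%) and 4 (52.1%). For SKNAS against KELLY the split of called genes moved from 6 higher and 1 lower to 2 and 2 in controls, and from 6 and 0 to 3 and 2 in Hmx1 libraries. The median change of the 10 genes from KELLY to SKNAS controls was 0.71 on TPM and 0.09 after scaling, beside 0.54 and 0.01 for all genes.

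**Figure D3:**
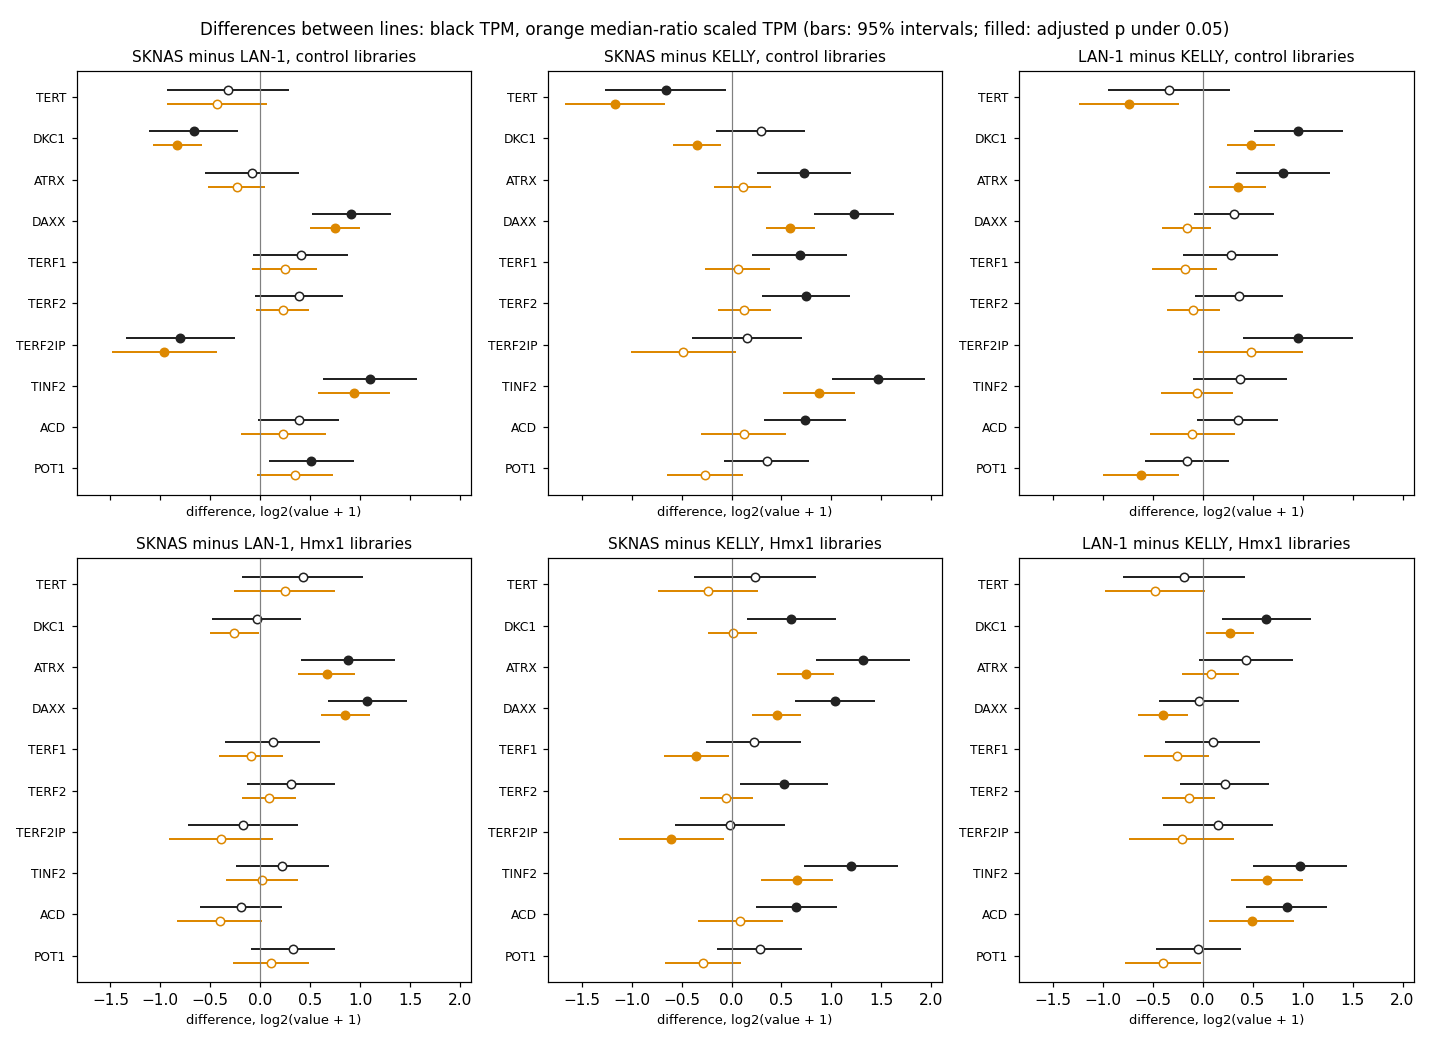
Differences between lines in control (top) and Hmx1 libraries (bottom), as log2 differences (horizontal axes) with 95% intervals, on TPM (black) and median-ratio scaled TPM (orange), with filled points for an adjusted p under 0.05. DAXX is filled on both scales in all 4 comparisons with SKNAS, while ACD in SKNAS minus KELLY is filled on TPM only.

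TERT, the catalytic subunit, lies on chromosome 5 at 1253262 to 1295184, minus strand, in the coordinates of the files, read as GRCh37. It was measured at 2.42, 3.02 and 3.70 TPM in SKNAS controls and 4.75, 6.02 and 3.66 TPM in SKNAS Hmx1 libraries. LAN-1 gave 4.23, 3.95 and 3.88 TPM in controls and 4.67, 2.00 and 3.59 TPM in Hmx1 libraries. KELLY gave 3.77, 6.18 and 6.43 TPM in controls and 4.94, 5.30 and 2.08 TPM in Hmx1 libraries. The arms overlapped in every line on TPM. After scaling, the 3 SKNAS Hmx1 libraries lay above the 3 controls, and the 3 KELLY Hmx1 libraries below. The Hmx1 difference was 0.51 ± 0.28 in SKNAS (adjusted p = 0.37, limma), -0.23 ± 0.28 in LAN-1 and -0.38 ± 0.28 in KELLY, and none was called on either scale.

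In controls TERT was lower in SKNAS than in KELLY, with a difference of -0.66 ± 0.28 on TPM (adjusted p = 0.0499, limma) and -1.17 ± 0.23 after scaling (adjusted p = 0.00037). The TPM call is at the threshold and was lost without any 1 of SKNAS control replicates 1 or 2 or KELLY control replicates 2 or 3 (adjusted p 0.089 to 0.15). After scaling TERT was also lower in LAN-1 than in KELLY controls (-0.73 ± 0.23, adjusted p = 0.015), where TPM gave -0.34 ± 0.28, not called. In Hmx1 libraries no line difference of TERT was called on either scale. The difference between SKNAS and KELLY in the Hmx1 effect on TERT was 0.90 ± 0.40 (adjusted p = 0.27). The deposited value named Coverage, whose definition is not given, was 2.53 to 7.67 for TERT per library. The residual spread of TERT, 0.37 on the log2 scale, was wider than that of 78.4% of tested genes.

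DKC1, which codes for dyskerin and lies on chromosome X at 153991031 to 154005964, was the most abundant of the 10 genes. It gave 163, 167 and 165 TPM in SKNAS controls and 206, 220 and 227 TPM in SKNAS Hmx1 libraries. LAN-1 gave 276, 238 and 275 TPM in controls and 269, 189 and 219 TPM in Hmx1 libraries. KELLY gave 88.8, 193 and 142 TPM in controls and 149, 154 and 128 TPM in Hmx1 libraries. The SKNAS arms did not overlap, while those of LAN-1 and KELLY did. The SKNAS difference was 0.40 ± 0.21 on TPM (adjusted p = 0.33, limma) and 0.41 ± 0.11 after scaling (adjusted p = 0.024).

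DKC1 was higher in LAN-1 than in KELLY on both scales and in both arms, by 0.96 ± 0.21 in controls (adjusted p = 0.00091) and 0.64 ± 0.21 in Hmx1 libraries (adjusted p = 0.016), or 0.48 and 0.27 after scaling. The call in Hmx1 libraries was lost without LAN-1 Hmx1 replicate 1 (0.50, adjusted p = 0.082) or KELLY Hmx1 replicate 3 (0.56, adjusted p = 0.064). It was lower in SKNAS than in LAN-1 controls, with -0.67 ± 0.21 on TPM (adjusted p = 0.012) and -0.83 after scaling. Against KELLY controls its sign depended on the scale: 0.29 ± 0.21 on TPM, not called, and -0.35 ± 0.11 after scaling (adjusted p = 0.011). In Hmx1 libraries it was higher in SKNAS than in KELLY on TPM, by 0.60 ± 0.21 (adjusted p = 0.017), but 0.01 ± 0.11 after scaling (adjusted p = 0.94). The TPM call was also lost without KELLY Hmx1 replicate 3 (0.52, adjusted p = 0.066). The DKC1 to TERT ratio of TPM, which needs no scaling between libraries, was 22.1 to 31.2 in KELLY controls, below the 44.6 to 67.6 of SKNAS and the 60.4 to 70.9 of LAN-1 controls. In KELLY Hmx1 libraries it ran from 29.0 to 61.5 and overlapped both other lines.

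Of 14 other telomerase genes tested, covering RNP assembly, RNA processing and Cajal body transport, none was called for Hmx1 in any line, with 1, 0 and 2 at an unadjusted p under 0.05 in SKNAS, LAN-1 and KELLY (limma). Between SKNAS and KELLY controls 11 were higher and 1 lower in SKNAS, where 49.5% and 16.1% of all genes were, or 8 and 3 after scaling (31.2% and 30.7%). TEP1, a telomerase-associated protein gene, averaged 10.1 ± 0.89 TPM (SD) in SKNAS controls and 0.020 ± 0.026 TPM in KELLY controls, a difference of 3.44 ± 0.16 (adjusted p = 5.7e-12, limma), or 3.16 after scaling. LAN-1 Hmx1 libraries were listed at 0 for TEP1. GAR1, a core protein of the H/ACA particle that contains dyskerin, was 1.60 ± 0.15 higher in SKNAS than in KELLY controls, and 0.96 after scaling. SHQ1, a dyskerin chaperone, was 1.33 ± 0.25 higher, or 0.71 after scaling. WRAP53, whose product takes telomerase to Cajal bodies, went the other way, at 10.2 ± 1.9 TPM in SKNAS and 25.4 ± 4.2 TPM in KELLY controls, a difference of -1.24 ± 0.17, or -1.84 after scaling. TERC, the template RNA, was under 1 TPM on average in every group, and these libraries were selected for poly(A).

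ATRX, the chromatin remodeller, at 76760356 to 77041702 on chromosome X, had the largest Hmx1 difference of the 10 genes in SKNAS on log2(TPM + 1), while with a pseudocount of 0.1 that of TERT was larger (0.63 against 0.57). It was expressed in all 18 libraries. SKNAS gave 29.3, 36.8 and 36.4 TPM in controls and 48.3, 51.5 and 51.8 TPM in Hmx1 libraries. LAN-1 gave 37.0, 38.4 and 32.8 TPM in controls and 37.3, 23.02 and 22.7 TPM in Hmx1 libraries. KELLY gave 14.1, 26.6 and 21.6 TPM in controls and 19.7, 23.1 and 16.7 TPM in Hmx1 libraries. The SKNAS Hmx1 libraries all lay above every control of that line, and in LAN-1 and KELLY the arms overlapped.

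The SKNAS difference of ATRX was 0.56 ± 0.22 on TPM (adjusted p = 0.15, limma) and 0.56 ± 0.13 after scaling (adjusted p = 0.0084). It was also called on FPKM, after quantile normalization and in a fit of the 6 SKNAS libraries alone, 4 of 15 alternatives, with values from 0.45 to 0.62. The Hmx1 effect on ATRX in SKNAS exceeded that in LAN-1 by 0.96 ± 0.31 on TPM (adjusted p = 0.095) and by 0.90 ± 0.18 after scaling (adjusted p = 0.0055). Without LAN-1 Hmx1 replicate 1, the highest of its arm, it was 1.19 on TPM (adjusted p = 0.023). Against KELLY it exceeded by 0.59 ± 0.31 (adjusted p = 0.36), or 0.63 ± 0.18 after scaling (adjusted p = 0.048). In Hmx1 libraries ATRX was higher in SKNAS than in LAN-1 by 0.88 ± 0.22 (adjusted p = 0.0025) and than in KELLY by 1.32 ± 0.22 (adjusted p = 5.3e-05), or 0.66 and 0.74 after scaling. In controls the difference from KELLY was 0.73 ± 0.22 on TPM and 0.11 after scaling, where it was not called. LAN-1 controls exceeded KELLY controls by 0.81 ± 0.22, or 0.35 after scaling, and both were called, but 0.48 without mitochondrial transcripts was not (adjusted p = 0.062).

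DAXX, the H3.3 chaperone that works with ATRX, at 33286335 to 33297046 on chromosome 6, separated SKNAS from both other lines. SKNAS gave 150, 123.7 and 143 TPM in controls and 133, 131 and 121.8 TPM in Hmx1 libraries. LAN-1 gave 72.8, 79.4 and 67.7 TPM in controls and 69.3, 59.5 and 54.1 TPM in Hmx1 libraries. KELLY gave 45.5, 83.8 and 53.0 TPM in controls and 70.5, 59.8 and 56.8 TPM in Hmx1 libraries. The lowest SKNAS library was above the highest library of the other lines. On TPM, all SKNAS libraries lay above all LAN-1 libraries for 29.2% of tested genes, and above all KELLY libraries for 39.4%. TERF2 also lay above both other lines on TPM, but overlapped both after scaling, where DAXX did not. DAXX was higher in SKNAS than in LAN-1 by 0.91 ± 0.18 in controls (adjusted p = 0.00049, limma) and 1.07 ± 0.18 in Hmx1 libraries, or 0.75 and 0.85 after scaling. It was higher than in KELLY by 1.22 ± 0.18 (adjusted p = 1.9e-05) and 1.04 ± 0.18, or 0.59 and 0.45 after scaling, and all 4 were called on both scales. The Hmx1 difference of DAXX was not called in any line.

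The ratio of DAXX to ATRX within a library was 3.36 to 5.12 in SKNAS controls and 2.35 to 2.75 in SKNAS Hmx1 libraries, without overlap. In LAN-1 it was 1.96 to 2.07 in controls and 1.86 to 2.59 in Hmx1 libraries, and in KELLY 2.46 to 3.22 and 2.59 to 3.58, with overlap in both lines. No test was made of the ratio.

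**Figure D4:**
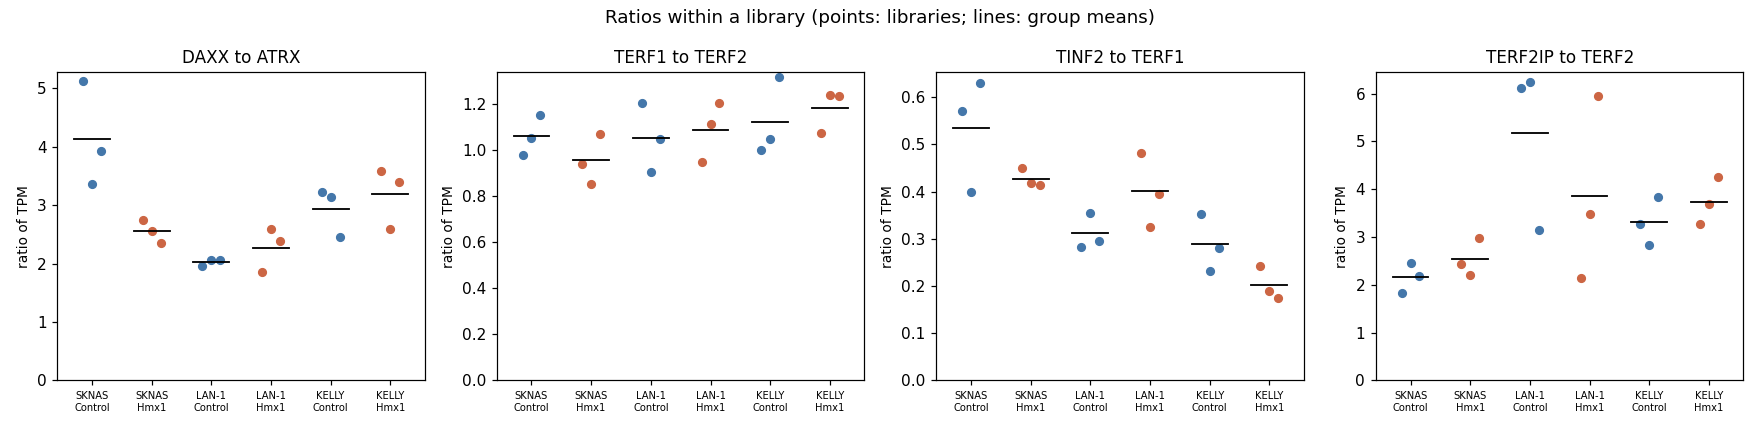
Ratios of TPM within each library (vertical axes, from 0) for 4 pairs of genes, by line and arm, with points for libraries and a line for the group mean. DAXX to ATRX falls from 3.36 to 5.12 in SKNAS controls to 2.35 to 2.75 in SKNAS Hmx1 libraries, while TERF1 to TERF2 stays between 0.854 and 1.32 in all 18 libraries.

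Of 15 genes for H3.3, its chaperones and heterochromatin, 0 were called for Hmx1 in any line, with 1, 0 and 1 at an unadjusted p under 0.05 in SKNAS, LAN-1 and KELLY (limma). Between SKNAS and KELLY controls 11 were higher and 0 lower in SKNAS (49.5% and 16.1% of all genes), or 6 and 3 after scaling (31.2% and 30.7%). SP100, a component of PML nuclear bodies, averaged 16.9 ± 1.5 TPM (SD) in SKNAS controls and 0.0050 ± 0.0063 TPM in KELLY controls, and LAN-1 controls were listed at 0. Its difference from KELLY was 4.15 ± 0.15 (adjusted p = 2.7e-13, limma), or 3.86 after scaling. ASF1B, a histone chaperone, was 2.04 ± 0.16 higher in SKNAS than in KELLY controls, and 1.43 after scaling. MORC3, a PML body protein, was 1.89 ± 0.21 higher, and 1.302 after scaling. CBX5, which codes for a heterochromatin protein, was 1.37 ± 0.26 higher, and 0.74 after scaling.

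TERF1 and TERF2, the double-strand binders, were close in level. TERF1 gave 41.5 to 46.5 TPM in SKNAS controls, 35.4 to 38.3 in SKNAS Hmx1 libraries, 26.3 to 37.1 over the LAN-1 libraries and 16.1 to 34.9 over the KELLY libraries. TERF2 gave 39.4 to 43.4, 35.8 to 41.6, 26.0 to 35.4 and 16.1 to 33.4 TPM in the same order. The lowest KELLY value of both is control replicate 1. TERF1 was below the controls in all 3 SKNAS Hmx1 libraries, with a difference of -0.25 ± 0.22, which was not called. The ratio of TERF1 to TERF2 stayed between 0.854 and 1.32 in the 18 libraries. Across the 18 libraries their log2 values had Pearson r = 0.87, and 0.81 after removing group means; the libraries share the scale of TPM, so this is a description only.

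Against KELLY controls TERF1 was 0.68 ± 0.22 higher in SKNAS (adjusted p = 0.012, limma) and TERF2 0.75 ± 0.20 higher (adjusted p = 0.0040). After scaling the differences were 0.06 and 0.13 and neither was called. In Hmx1 libraries TERF2 was 0.52 ± 0.20 higher in SKNAS than in KELLY (adjusted p = 0.033), and -0.05 after scaling. That call was lost without any 1 of SKNAS Hmx1 replicates 1 or 2 or KELLY Hmx1 replicates 2 or 3 (adjusted p 0.054 to 0.12). TERF1 was 0.22 ± 0.22, not called, on TPM and -0.35 ± 0.15 after scaling (adjusted p = 0.047). The 7 named pseudogene copies of TERF1 were at most 0.454 TPM in a library.

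TERF2IP (RAP1), at 75681684 to 75795770 on chromosome 16, had the widest spread between libraries of a group among the 6 shelterin genes, 0.34 on the log2 scale. SKNAS gave 79.5, 96.9 and 87.7 TPM in controls and 91.7, 91.9 and 107.003 TPM in Hmx1 libraries. LAN-1 gave 180, 181 and 110.9 TPM in controls and 76.0, 110 and 155 TPM in Hmx1 libraries. KELLY gave 52.9, 94.3 and 97.9 TPM in controls and 95.2, 101 and 97.4 TPM in Hmx1 libraries. The 6 LAN-1 libraries run from 76.0 to 181 TPM, and the arms overlap in every line. LAN-1 controls exceeded SKNAS controls, with -0.80 ± 0.26 for SKNAS minus LAN-1 (adjusted p = 0.014, limma) and -0.96 after scaling. That call was lost without SKNAS control replicate 1 or LAN-1 control replicate 1 or 2 (adjusted p 0.051 to 0.064). They exceeded KELLY controls by 0.95 ± 0.26 (adjusted p = 0.0049), or 0.48 after scaling, which was not called. In Hmx1 libraries neither was called. TERF2IP overlaps KARS1, a tRNA synthetase gene with a mean of 206 TPM on the opposite strand, by 858 bases, and no source here says whether counting used the strand, so its level is uncertain.

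TINF2, the bridge of the complex, at 24708849 to 24711880 on chromosome 14, gave the largest line difference of the 10 genes on TPM, while after scaling that of TERT between SKNAS and KELLY controls was larger, and that of TERF2IP between SKNAS and LAN-1 controls about as large. SKNAS gave 24.3, 16.6 and 29.3 TPM in controls and 15.9, 14.9 and 15.8 TPM in Hmx1 libraries. LAN-1 gave 10.1, 9.35 and 10.99 TPM in controls and 16.1, 11.5 and 12.4 TPM in Hmx1 libraries. KELLY gave 5.70, 8.12 and 9.38 TPM in controls and 7.63, 6.44 and 4.93 TPM in Hmx1 libraries. The SKNAS Hmx1 libraries all lay below the SKNAS controls, and the LAN-1 Hmx1 libraries all above the LAN-1 controls. Neither difference was called on TPM or after median-ratio scaling: -0.52 ± 0.22 in SKNAS (adjusted p = 0.18, limma) and 0.35 ± 0.22 in LAN-1 (adjusted p = 0.88) on TPM. The SKNAS difference was called in 1 of 15 alternatives, after quantile normalization (adjusted p = 0.043, limma).

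TINF2 exceeded KELLY in SKNAS by 1.47 ± 0.22 in controls (adjusted p = 1.6e-05) and 1.19 ± 0.22 in Hmx1 libraries (adjusted p = 0.00014), or 0.88 and 0.66 after scaling. It exceeded LAN-1 by 1.10 ± 0.22 in controls (adjusted p = 0.00041), or 0.94 after scaling, and by 0.22 ± 0.22 in Hmx1 libraries, not called. The difference between these, which is the difference of the Hmx1 effects, was -0.88 ± 0.31 (adjusted p = 0.14), and -0.92 ± 0.23 after scaling (adjusted p = 0.024). Without SKNAS control replicate 2 it was -1.10 on TPM (adjusted p = 0.047). In Hmx1 libraries LAN-1 exceeded KELLY by 0.97 ± 0.22 (adjusted p = 0.0014), or 0.65 after scaling. As a share of the summed TPM of the 6 shelterin genes, TINF2 took 6.85% to 10.9% in SKNAS controls, 3.26% to 4.54% in LAN-1 controls and 3.78% to 4.58% in KELLY controls. That share does not depend on the scaling of a library, and SKNAS controls stood above both. In Hmx1 libraries it was 6.36% to 6.86% in SKNAS and 4.60% to 7.46% in LAN-1, which overlap, and 2.63% to 3.81% in KELLY. The sum includes TERF2IP, whose level is uncertain.

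ACD (TPP1) and POT1 bind each other at the single-stranded end. ACD gave 25.9 to 29.9 TPM in SKNAS controls, 19.9 to 25.3 in SKNAS Hmx1 libraries, 18.7 to 21.8 in LAN-1 controls and 21.7 to 36.5 in LAN-1 Hmx1 libraries. KELLY gave 13.03 to 18.1 TPM in controls and 13.4 to 14.6 in Hmx1 libraries. ACD was higher in SKNAS than in KELLY by 0.74 ± 0.19 in controls (adjusted p = 0.0025, limma) and 0.65 ± 0.19 in Hmx1 libraries, but 0.12 and 0.09 after scaling, not called. It was higher in LAN-1 than in KELLY Hmx1 libraries by 0.84 ± 0.19 (adjusted p = 0.0013), or 0.49 after scaling (adjusted p = 0.045). LAN-1 Hmx1 replicate 1 had the highest ACD value of all, 36.5 TPM. ACD overlaps CARMIL2, at a mean of 16.97 TPM on the other strand, by 58 bases.

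POT1 gave 22.3 to 35.0 TPM in SKNAS controls and 26.2 to 27.0 in SKNAS Hmx1 libraries, and 17.3 to 26.1 TPM over LAN-1 and 17.8 to 26.9 over KELLY. It was 0.51 ± 0.20 higher in SKNAS than in LAN-1 controls (adjusted p = 0.039, limma), and 0.35 after scaling, not called. The TPM call was lost without any 1 of SKNAS control replicates 1 or 3 or LAN-1 control replicates 1 or 2 (adjusted p 0.11 to 0.16). After scaling it was lower in LAN-1 than in KELLY controls (-0.61 ± 0.17, adjusted p = 0.0078), where TPM gave -0.16 ± 0.20. Its antisense gene POT1-AS1 averaged 0.703 TPM. The 6 shelterin genes summed to 243 to 269 TPM in SKNAS controls, 242 to 291 in LAN-1 controls and 127 to 215 in KELLY controls.

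Of 10 other genes of telomere capping and end processing, none was called for Hmx1 in any line, with 1, 1 and 2 at an unadjusted p under 0.05 in SKNAS, LAN-1 and KELLY (limma). In controls, SKNAS against KELLY gave 7 higher and 0 lower (49.5% and 16.1% of all genes), or 3 and 2 after scaling (31.2% and 30.7%). SLX4IP was 2.11 ± 0.26 higher in SKNAS than in KELLY controls (adjusted p = 2.3e-06, limma), or 1.75 after scaling, at 7.16 ± 1.9 and 0.94 ± 0.68 TPM (SD). TNKS, the tankyrase that releases TERF1 from telomeres, was 1.47 ± 0.23 higher, or 0.88 after scaling, and STN1, a subunit of the CST complex, 1.28 ± 0.18 higher, or 0.67. SAMHD1, a dNTP hydrolase, was 1.65 ± 0.22 higher in LAN-1 than in KELLY controls, or 1.21 after scaling, and RTEL1, a helicase that unwinds telomere loops, was lower (-0.97 ± 0.25, or -1.41 after scaling).

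Genes of the recombination route to telomere maintenance were given by a list of 28. None was called for Hmx1 in any line, with 1, 1 and 1 at an unadjusted p under 0.05 in SKNAS, LAN-1 and KELLY (limma). In controls 17 were higher and 1 lower in SKNAS than in KELLY, or 11 and 6 after scaling, beside 49.5% and 16.1% of all genes on TPM and 31.2% and 30.7% after scaling. TSPYL5, which acts on POT1 stability at telomeres of such cells, was at 49.4 ± 2.5 TPM (SD) in SKNAS controls and 46.1 ± 2.8 in Hmx1 libraries and was listed at 0 in all 12 libraries of LAN-1 and KELLY. WRN, a RecQ helicase, averaged 35.0 ± 2.0 TPM in SKNAS, 18.6 ± 1.0 in LAN-1 and 4.73 ± 1.3 in KELLY controls, a difference of 2.68 ± 0.22 between SKNAS and KELLY (adjusted p = 1.5e-08, limma), or 2.11 after scaling. RMI1, a partner of the BLM helicase, was 1.98 ± 0.27 higher in SKNAS than in KELLY controls, or 1.40 after scaling. HMBOX1, a telomere repeat binder, was 1.84 ± 0.28 higher, or 1.24 after scaling.

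Known regulators of TERT transcription numbered 18 among tested genes. MYC, which binds the E-box, was at 20.6 ± 7.3 TPM (SD) in SKNAS controls and 4.25 ± 0.24 in SKNAS Hmx1 libraries, a difference of -1.98 ± 0.23 (adjusted p = 1.4e-05, limma). In the same comparison TERT differed by 0.51 ± 0.28, not called. Between SKNAS and KELLY controls 13 of the 18 were higher and 2 lower in SKNAS on TPM (49.5% and 16.1% of all genes), and 7 and 4 after scaling (31.2% and 30.7%). MYCN was at 0.047 ± 0.045 TPM in SKNAS controls, 867 ± 30 in LAN-1 and 1424 ± 533 in KELLY controls, with no Hmx1 call in any line. MXD1, a repressor that competes with MYC for its partner MAX, was higher in LAN-1 Hmx1 libraries, at 10.3 ± 0.77 TPM against 3.33 ± 2.4, a difference of 1.51 ± 0.27 (adjusted p = 0.015). TERT in LAN-1 was not called. The ETS factors ETV4 and ETV5 were at 66.8 ± 2.5 and 70.3 ± 5.3 TPM in SKNAS controls, 1.64 ± 0.23 and 2.02 ± 0.80 in LAN-1, and 6.89 ± 2.6 and 25.3 ± 5.3 in KELLY controls. ETS1 was at 13.5 ± 1.3 TPM in SKNAS and 0.518 ± 0.28 in LAN-1 controls.

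Of 17 genes around TERT on the short arm of chromosome 5, 13 were tested, and none was called for Hmx1 in any line, with 2, 0 and 1 at an unadjusted p under 0.05 in SKNAS, LAN-1 and KELLY (limma). CLPTM1L, the listed gene nearest the TERT start, at 1317859 to 1345214, averaged 185 ± 16 TPM (SD) in SKNAS, 107.1 ± 4.1 in LAN-1 and 91.5 ± 32 in KELLY controls. In SKNAS it exceeded LAN-1 controls by 0.78 ± 0.26 (adjusted p = 0.018, limma), or 0.62 after scaling. SLC12A7, a potassium-chloride cotransporter gene, was lower in SKNAS than in KELLY controls (-1.91 ± 0.24, or -2.46 after scaling), at 3.28 ± 0.83 and 14.9 ± 0.52 TPM. TPPP was lower too (-1.58 ± 0.28, or -1.84 after scaling), and NKD2 was listed at 0 in SKNAS controls, against 4.80 ± 0.32 TPM in LAN-1. SLC6A18, the listed gene nearest the other end of TERT, did not pass the filter on low values. In controls 6 of the 13 were higher and 4 lower in SKNAS than in KELLY (49.5% and 16.1% of all genes), or 3 and 7 after scaling (31.2% and 30.7%).

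The 5 genes whose log2 values over the 18 libraries were most like those of TERT were ANP32E (Pearson r = 0.86), ABCC5 (0.81), TENM4 (0.81), TMEM51-AS1 (0.80) and GNB3 (0.79). After scaling the same genes had r of 0.84 to 0.87. Those most like ATRX were BOD1L1 (0.98), CHD6 (0.97), HIF1AN (0.97), PPP1R10 (0.96) and BPTF (0.96), and 0.86 to 0.90 after scaling. Points of a library share its scale, so r is given as a description.

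Genes used as markers of other cell types differed between the lines and, in SKNAS, between the arms. All are human gene identifiers, and whether their signal came from mouse host cells or from the tumour cells was not tested. The 9 fibroblast genes summed to 818 to 1356 TPM in SKNAS libraries, 15.4 to 55.9 in LAN-1 and 53.8 to 176 in KELLY, with DPT listed at 0 in all LAN-1 libraries. DCN was listed at 0 in the KELLY Hmx1 libraries. All 9 were called higher in SKNAS than in LAN-1 in both arms on TPM, where 31.5% of all genes were in controls and 34.2% in Hmx1 libraries, as were the 8 tested after scaling. The 11 noradrenergic identity genes summed to 1988 to 2748 TPM in SKNAS, 3895 to 5079 in LAN-1 and 4141 to 6975 in KELLY. None was at 0 in all libraries of a group, but 1 was below 1 TPM in all 3 SKNAS Hmx1 libraries. How much each gene added to these sums is not given here. The 7 macrophage genes summed to 77.4 to 105 TPM in SKNAS controls and 190 to 287 TPM in SKNAS Hmx1 libraries, mostly PTPRC, and to at most 1.75 TPM in the other lines. Of these 7 genes, 4 were below 1 TPM in all 3 SKNAS controls and 5 in all 3 SKNAS Hmx1 libraries. The higher sum in SKNAS Hmx1 libraries is therefore not a rise of the list as a whole. The 6 endothelial genes summed to 6.64 to 10.2 TPM in SKNAS, 0.865 to 1.32 in LAN-1 and 7.35 to 42.9 in KELLY. In SKNAS, 3 of 16 proliferation genes were called lower in Hmx1 libraries, CDK1 by -0.92 ± 0.23, RRM2 by -0.87 ± 0.26 and AURKB by -0.66 ± 0.18 (limma), and 3 of 9 fibroblast genes were lower, where 3.8% of all genes were. After scaling the same 3 proliferation genes were called, and of 8 fibroblast genes tested 2 were lower and 1, DCN, higher. Their part in the line differences and in the SKNAS values of ATRX, DKC1 and TINF2 was not tested.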

How the data were processed

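Bulk RNA sequencing of 18 xenograft libraries was measured in 6 groups of 3, taken from the sample titles. Per the labels' protocols, RNA came from a lipid tissue kit and libraries from a stranded poly(A) kit. STAR, bcl2fastq and FastQC are named in the submitters' processing notes. The gene counting tool, its annotation and strand setting, and any filter against mouse reads: not given in the sources used here. The authors deposited 1 table per library with columns named TPM and FPKM for 63677 gene identifiers, per the file headers. The deposited tables also give a column named Coverage, per the file headers, whose definition no source here gives. TPM keeps no read depth, so the depth of each library is unknown and no counting interval is given. The last gene end on chromosome 1 matches GRCh37, while promoter sequences are GRCh38.p14, and no coordinates were converted.

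From the deposited TPM, log2(TPM + 1) was fitted with limma 3.58.1 (R 4.3.3) with a mean for each of the 6 groups and a mean-dependent prior, over 18650 genes with at least 1 TPM in at least 3 libraries, leaving 12 residual and 4.95 prior degrees of freedom. Benjamini-Hochberg adjustment ran over all genes tested. Median-ratio scaling divided each library by the median ratio of its genes to their geometric mean over libraries. Tables were handled with Python 3.11.15, pandas 2.3.3 and numpy 2.4.6, and the fit was tested on simulated data. Alternatives were another pseudocount, FPKM, other filters, removal of mitochondrial transcripts, 2 other scalings, a fit without trend, fits of 6 libraries alone and leaving out libraries. The 10 genes were named throughout. Of other lists, at most 4 genes per comparison were eligible, those with the largest change among called genes, with no such limit for TERT neighbours and regulators. The members and lists were chosen with earlier results of these data known.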

Additional observations from a re-analysis of the deposited data

Results flagged for a closer look

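These results are differences between lines in the Hmx1 effect that were called by limma in the fit of all genes. Only genes of the chosen lists are reported here. Of all genes limma called 931 (4.99%) for SKNAS minus LAN-1, 904 (4.85%) for SKNAS minus KELLY and 39 (0.209%) for LAN-1 minus KELLY. The genes below are therefore a small part of those called. Groups of 3 libraries were not searched for outlying samples. The Hmx1 effect on MYC in SKNAS minus that in LAN-1 was -1.64 ± 0.33 (adjusted p = 0.0051). The effect on MYC in SKNAS minus that in KELLY was -1.90 ± 0.33 (adjusted p = 0.0016), with SKNAS libraries at 12.2 to 25.0 TPM in controls and 3.999 to 4.47 TPM in the Hmx1 arm. For MXD1 the SKNAS effect minus the LAN-1 effect was -1.43 ± 0.39 (adjusted p = 0.040). For CDK1, a kinase of the cell cycle, the SKNAS effect minus the KELLY effect was -1.18 ± 0.32 (adjusted p = 0.042).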

How the results depend on the processing

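No paired analysis was possible because the labels carry no replicate numbers that link libraries across groups. Of 2290 changes of the 10 genes compared with an alternative, 2037 kept their direction and side of the threshold, 47 lost the call, 45 gained it and 161 took the opposite sign. Of the last, 2 were called, both after median-ratio scaling in SKNAS against KELLY (DKC1 in controls, TERF1 in Hmx1 libraries), and 2 had been called on TPM (TERF2 in SKNAS against KELLY, Hmx1 libraries). The TERT difference between SKNAS and KELLY controls lost its call with a pseudocount of 0.1 (adjusted p = 0.064, limma), with no filter (0.094) and in the fit of 6 libraries alone (0.067), in a range of 0.00019 to 0.15 over its alternatives. Leaving out the 2 KELLY libraries that were low for most genes was chosen after seeing the data. TERT, the gene with the lowest level, had the widest spread of the 10, and fits with 1 library left out rest on a spread shared between groups.

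The count of all genes called moved by over 1.5 times in these cases. A filter of 5 TPM gave 1028 for Hmx1 in SKNAS, 45 in LAN-1, 10 in KELLY, 419 for the mean effect, and 574, 567 and 17 for SKNAS minus LAN-1, SKNAS minus KELLY and LAN-1 minus KELLY, against 1634, 84, 17, 660, 931, 904 and 39. No filter gave 127 in LAN-1 and 49 in KELLY. Median-ratio scaling gave 168 in LAN-1, 32 in KELLY and 66 for LAN-1 minus KELLY, and quantile normalization 169 in LAN-1, 67 for LAN-1 minus KELLY and 1371 for SKNAS minus KELLY. The fit of 6 libraries alone gave 27 in LAN-1 and 0 in KELLY. Without the 2 low KELLY libraries KELLY gave 26. Leaving out KELLY control replicate 2 gave 49 in KELLY, 1357 for SKNAS minus KELLY and 81 for LAN-1 minus KELLY. Leaving out KELLY control replicate 1 gave 29 in KELLY and 62 for LAN-1 minus KELLY, KELLY Hmx1 replicate 1 gave 27 in KELLY, and KELLY Hmx1 replicate 2 gave 25 for LAN-1 minus KELLY. Leaving out LAN-1 control replicate 1 or 2 or Hmx1 replicate 2 or 3 gave 53 or 54 in LAN-1, and LAN-1 control replicates 1, 2 or 3 or Hmx1 replicate 2 gave 20, 25, 24 and 17 for LAN-1 minus KELLY.

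Of the 10 genes, 3 rather than 5 were called between SKNAS and LAN-1 controls without SKNAS control replicate 1 or LAN-1 control replicate 1 or 2. Without KELLY control replicate 2, 5 rather than 3 were called between LAN-1 and KELLY controls. For SKNAS minus LAN-1 in the Hmx1 effect, 1 was called without SKNAS control replicate 2 (TINF2) or LAN-1 Hmx1 replicate 1 (ATRX). Where a call changed, the cause was not tested. Below, counts of the 10 genes called under an alternative stand without the share of all genes called under it. They describe dependence on the processing and are not results about the 10 genes.

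In the Hmx1 difference of LAN-1, the sign was opposite on FPKM for TERF2 (0.015), after median-ratio scaling for TERF2 (0.050), after quantile normalization for TERF2 (0.047). With 1 library left out, the Hmx1 difference of LAN-1 ranged over -0.43 to 0.024 for TERT, -0.12 to 0.12 for TERF1, -0.11 to 0.10 for TERF2 and -0.099 to 0.19 for POT1.

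For the Hmx1 difference of SKNAS, genes called numbered 1 on FPKM, 2 in a fit of 6 libraries alone, 2 after median-ratio scaling and 3 after quantile normalization (ATRX, DKC1 and TINF2).

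For the Hmx1 effect in SKNAS minus LAN-1, genes called numbered 2 on FPKM, 3 after median-ratio scaling and 3 after quantile normalization. Ranges for the Hmx1 effect in SKNAS minus LAN-1 with 1 library left out were 0 to 1 genes called and -0.20 to 0.017 for TERF2.

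In LAN-1 against KELLY in Hmx1 libraries, the sign was opposite on FPKM for TERF1 (-0.12) and TERF2IP (-0.065), after median-ratio scaling for TERF1 (-0.26), TERF2 (-0.14) and TERF2IP (-0.21), after quantile normalization for TERF1 (-0.25), TERF2 (-0.14) and TERF2IP (-0.18), without mitochondrial transcripts for TERF1 (-0.11) and TERF2IP (-0.058). With 1 library left out, LAN-1 against KELLY in Hmx1 libraries ranged over -0.52 to 0.067 for TERT, -0.13 to 0.057 for DAXX, -0.095 to 0.41 for TERF2IP and -0.084 to 0.030 for POT1.

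The opposite sign was found in LAN-1 against KELLY in control libraries on FPKM for TERF1 (-0.0054), after median-ratio scaling for ACD (-0.11), DAXX (-0.16), TERF1 (-0.18), TERF2 (-0.096) and TINF2 (-0.056), after quantile normalization for ACD (-0.10), DAXX (-0.14), TERF1 (-0.18), TERF2 (-0.11) and TINF2 (-0.046), without KELLY control 1 and Hmx1 3 for TERF1 (-0.068), without mitochondrial transcripts for DAXX (-0.023) and TERF1 (-0.050). LAN-1 against KELLY in control libraries ranged, with 1 library left out, over 3 to 5 genes called and -0.068 to 0.47 for TERF1.

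For SKNAS against KELLY in Hmx1 libraries, values of opposite sign were found on FPKM for TERF1 (-0.020), after median-ratio scaling for POT1 (-0.29), TERF1 (-0.35), TERF2 (-0.051) and TERT (-0.23), after quantile normalization for POT1 (-0.30), TERF1 (-0.32), TERF2 (-0.038) and TERT (-0.37), without KELLY control 1 and Hmx1 3 for TERT (-0.095). Ranges for SKNAS against KELLY in Hmx1 libraries with 1 library left out were -0.095 to 0.42 for TERT and -0.089 to 0.021 for TERF2IP.

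For SKNAS against KELLY in control libraries, genes called numbered 3 in a fit of 6 libraries alone, 4 after median-ratio scaling and 3 after quantile normalization. In SKNAS against KELLY in control libraries, the sign was opposite on FPKM for TERF2IP (-0.13), after median-ratio scaling for DKC1 (-0.35), POT1 (-0.27) and TERF2IP (-0.48), after quantile normalization for DKC1 (-0.20), POT1 (-0.31) and TERF2IP (-0.42), without KELLY control 1 and Hmx1 3 for DKC1 (-0.0063) and TERF2IP (-0.13). With 1 library left out, SKNAS against KELLY in control libraries ranged over -0.0063 to 0.55 for DKC1 and -0.13 to 0.31 for TERF2IP.

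For the Hmx1 effect in SKNAS minus KELLY, genes called numbered 1 after median-ratio scaling and 1 after quantile normalization. The opposite sign was found in the Hmx1 effect in SKNAS minus KELLY after quantile normalization for POT1 (0.0074) and TERF2IP (0.031), without KELLY control 1 and Hmx1 3 for POT1 (0.078) and TERF2IP (0.11), without mitochondrial transcripts for ACD (0.029) and POT1 (0.047). The Hmx1 effect in SKNAS minus KELLY ranged, with 1 library left out, over -0.46 to 0.045 for TERF2, -0.32 to 0.11 for TERF2IP, -0.27 to 0.11 for POT1 and -0.17 to 0.050 for ACD.

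For the mean Hmx1 effect, values of opposite sign were found after median-ratio scaling for TERF1 (0.011), after quantile normalization for TERF1 (0.0054), without KELLY control 1 and Hmx1 3 for ACD (0.0095), ATRX (-0.0039), TERF2 (-0.053) and TERT (0.0090), without mitochondrial transcripts for ATRX (-0.013) and TERF2 (-0.047). Ranges for the mean Hmx1 effect with 1 library left out were -0.10 to 0.077 for TERT, -0.041 to 0.10 for ATRX, -0.015 to 0.17 for DKC1, -0.12 to 0.061 for TERF1, -0.085 to 0.082 for TERF2, -0.11 to 0.071 for TERF2IP and -0.11 to 0.012 for ACD.

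For SKNAS against LAN-1 in Hmx1 libraries, genes called numbered 4 without mitochondrial transcripts. On TPM, 53.1% of all tested genes were called there, and the share without mitochondrial transcripts is not given here. In SKNAS against LAN-1 in Hmx1 libraries, the sign was opposite after median-ratio scaling for TERF1 (-0.094), after quantile normalization for DKC1 (0.021), TERF1 (-0.073), TERT (-0.016) and TINF2 (-0.065), without mitochondrial transcripts for DKC1 (0.15) and TERF2IP (0.011). With 1 library left out, SKNAS against LAN-1 in Hmx1 libraries ranged over -0.16 to 0.098 for DKC1, -0.43 to 0.078 for TERF2IP and -0.32 to 0.040 for ACD.

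The opposite sign was found in the Hmx1 difference of KELLY after quantile normalization for DAXX (-0.0021) and DKC1 (-0.048), without KELLY control 1 and Hmx1 3 for DAXX (-0.037), DKC1 (-0.13), TERF1 (-0.069) and TERF2 (-0.047), without mitochondrial transcripts for DAXX (-0.055), DKC1 (-0.048) and TERF2 (-0.0017). The Hmx1 difference of KELLY ranged, with 1 library left out, over -0.27 to 0.16 for ATRX, -0.10 to 0.33 for DAXX, -0.21 to 0.35 for DKC1, -0.13 to 0.40 for TERF1, -0.14 to 0.36 for TERF2 and -0.27 to 0.016 for POT1.

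For the Hmx1 effect in LAN-1 minus KELLY, values of opposite sign were found without KELLY control 1 and Hmx1 3 for TERF1 (0.10) and TERF2 (0.031). Ranges for the Hmx1 effect in LAN-1 minus KELLY with 1 library left out were -0.18 to 0.40 for TERT, -0.37 to 0.17 for TERF1, -0.37 to 0.13 for TERF2 and -0.0095 to 0.29 for POT1.

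For SKNAS against LAN-1 in control libraries, genes called numbered 8 without mitochondrial transcripts. On TPM, 52.0% of all tested genes were called there, and the share without mitochondrial transcripts is not given here. In SKNAS against LAN-1 in control libraries, the sign was opposite without mitochondrial transcripts for ATRX (0.10). With 1 library left out, SKNAS against LAN-1 in control libraries ranged over 3 to 5 genes called and -0.15 to 0.024 for ATRX.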
